A study of Drosophila melanogaster with 7 samples.

Results

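The actin gene family of Drosophila has 6 genes, and the values of 5 of them, Act5C, Act42A, Act79B, Act87E and Act88F, were examined here among 7608 genes in all. The members were taken by name and FlyBase identifier, as a family chosen with earlier results of these data known. Act57B, the other member, was not analysed here. RNA-seq had been carried out on Esg-GFP+ cells sorted from adult midgut at day 10, in 4 libraries labelled wild type and 3 labelled Sox21a-/-. Both groups carried Esg-GFP, a GFP trap fused to the transcription factor Esg that marks the intestinal stem cells (ISCs) and enteroblasts (EBs) of the midgut, and the mutant flies in addition lacked Sox21a, a group B Sox transcription factor. The labels do not say which Sox21a deletion allele was used, and each library came from the pooled guts of many flies. The question of the comparison was how the transcriptome of these progenitor cells differs without Sox21a.

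Actin is the globular protein that polymerizes into the filaments of the cell cortex and of muscle. In Drosophila, Act5C and Act42A encode the cytoplasmic actins found in nearly every cell. Act57B and Act87E are used in larval and other body muscles, Act79B in tubular adult muscles such as those of the leg, and Act88F in the indirect flight muscles. In the midgut, muscle actin belongs to the visceral muscle that wraps the epithelium, whereas the epithelial cells themselves use cytoplasmic actin. The actin proteins are known to be almost identical, but the sequences of the genes were not compared here. In the BDGP6 annotation each of the 6 genes has a coding sequence of 1128 bases, or 376 codons. How reads that fit more than one gene were assigned is not given in the sources used here, so the level of each actin gene may hold an unknown share of reads from its relatives.

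The deposited values are FPKM, in which reads are scaled both by exon length and by library depth, so levels can be compared between genes. About 8235833 to 10283909 reads stood behind each library, as recovered from the steps between the lowest values. Wild type replicates 1 and 2 and Sox21a-/- replicate 2 formed a higher depth level, at 10186358 reads or more, and the other 4 libraries a lower one, at 8898278 reads or fewer. Of all values, 25.7% were exactly 0, and 79 of the 109 genes with a median of at least 1000 FPKM among their values above 0 were listed at 0 in at least 1 library. A listed 0 can thus be a failed estimate, so genes with zeros are given library by library. Sox21a itself had wild type values of 0, 0, 230.4 and 233 FPKM and mutant values of 96.3, 50.6 and 0 FPKM, so it does not check the labels, and group names stand for labels here. Wild type replicates 3 and 4 were much closer to each other than any other pair. Their squared differences were 1.88 times what counting alone gives, against 4.53 to 23.6 times for the other pairs. The labels do not say whether the libraries came from separate pools of flies, so p-values measure only the spread between these libraries. The paper's methods give 3 biological replicates, whereas 4 libraries are labelled wild type. The main tests counted wild type replicates 3 and 4 as separate libraries. Sox21a-/- replicate 2 stood apart in markers of hemocytes, the blood cells. It had 33.1 FPKM of Col4a1, a collagen gene, against 1.83 to 5.40 FPKM elsewhere, and 15.0 FPKM of NimC1, a phagocytosis receptor gene, against 0.102 to 2.01 FPKM. The marker crq was not highest there, at 122.8 FPKM against 137.5 and 140.8 FPKM in Sox21a-/- replicates 1 and 3. Of 9 hemocyte markers, 7 had values, and He, Pxn and crq were listed at 0 in 4, 3 and 1 libraries. The summed level was 2.81 to 134 FPKM in wild type libraries and 146 to 216 FPKM in mutant ones, most of it crq except in wild type replicate 1, where crq was at 0. The 4 markers without zeros (NimC1, Col4a1, vkg and eater) were higher in every mutant library than in any wild type library. The groups did not overlap, in either direction, for 19.7% of all genes tested. That share includes genes with zeros, and the share among genes without zeros was not computed. The median log2 difference of these 4 markers was 1.79, and none was called.

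Esg-GFP+ cells of both genotypes expressed cytoplasmic actin at a very high level, and Act5C was the leading family member wherever it had a value. Act5C (FBgn0000042) lies on the plus strand of chromosome X from 5900861 to 5905399 and has 5 annotated transcripts of 2 exons each. Here and below, positions are those of BDGP6, not of Release 5, to which the reads had been aligned. Its wild type values were 4366, 6607, 7516 and 0 FPKM, in order of replicate. Its Sox21a-/- values were 5705, 2973 and 0 FPKM. The values above 0 spanned 2.53-fold, the wild type and Sox21a-/- values overlapped, and each group held 1 library listed at 0. Act5C ranked between the 3rd and the 25th highest gene in the 5 libraries with a value, and it took 0.780% to 2.06% of the summed FPKM.

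The 0 of Act5C in wild type replicate 4 stood beside 7516 FPKM in wild type replicate 3, its closest library. Even with the shortest annotated transcript, the latter value stands for about 104481 reads. In the same pair of libraries Act42A was at 380.7 and 389.5 FPKM, Act87E at 168.8 and 170.5 FPKM, and Act79B at 1.59 and 1.52 FPKM. The 3 relatives thus differed little between the libraries in which Act5C went from its highest value to 0.

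Act42A (FBgn0000043), the other cytoplasmic actin gene, lies on the minus strand of chromosome 2R from 6013910 to 6015689 and has 1 annotated transcript. The wild type libraries held 98.9, 517, 380.7 and 389.5 FPKM of it, and the Sox21a-/- libraries 784, 329 and 0 FPKM. Its lowest value above 0, in wild type replicate 1, was 7.93 times below its highest, in Sox21a-/- replicate 1, so that Act42A varied more than Act5C between libraries. The groups overlapped. Sox21a-/- replicate 3 was the only library in which both cytoplasmic actin genes were listed at 0.

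Among the muscle actins, Act87E was present at a substantial level in every library, whereas Act79B and Act88F were close to the limit of detection. Act87E (FBgn0000046) lies on the plus strand of chromosome 3R from 13425983 to 13428375 and has 3 annotated transcripts. The wild type libraries held 85.9, 127.6, 168.8 and 170.5 FPKM of it, and the Sox21a-/- libraries 126.5, 61.7 and 116.4 FPKM. The mean was 138 ± 40.1 FPKM (SD, n = 4) in wild type and 102 ± 34.9 FPKM (SD, n = 3) in Sox21a-/-, and the groups overlapped.

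Act79B (FBgn0000045; chromosome 3L, plus strand, 21985210 to 21987190) had wild type values of 0.839, 1.43, 1.59 and 1.52 FPKM and Sox21a-/- values of 1.15, 0.886 and 3.17 FPKM. Sox21a-/- replicate 3 alone exceeded the wild type range, and the other 2 Sox21a-/- values lay within the wild type range. Its values correspond to about 13.3 to 43.6 reads per library with the shorter of its 2 transcripts. Act88F (FBgn0000047; chromosome 3R, plus strand, 15439969 to 15442177) had wild type values of 0.308, 0.656, 0.138 and 0.179 FPKM and Sox21a-/- values of 1.22, 1.53 and 0.290 FPKM. Sox21a-/- replicates 1 and 2 were above all wild type libraries and replicate 3 was within their range. The lowest and the highest value stand for only about 1.87 and 25.1 reads.

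**Figure D1:**
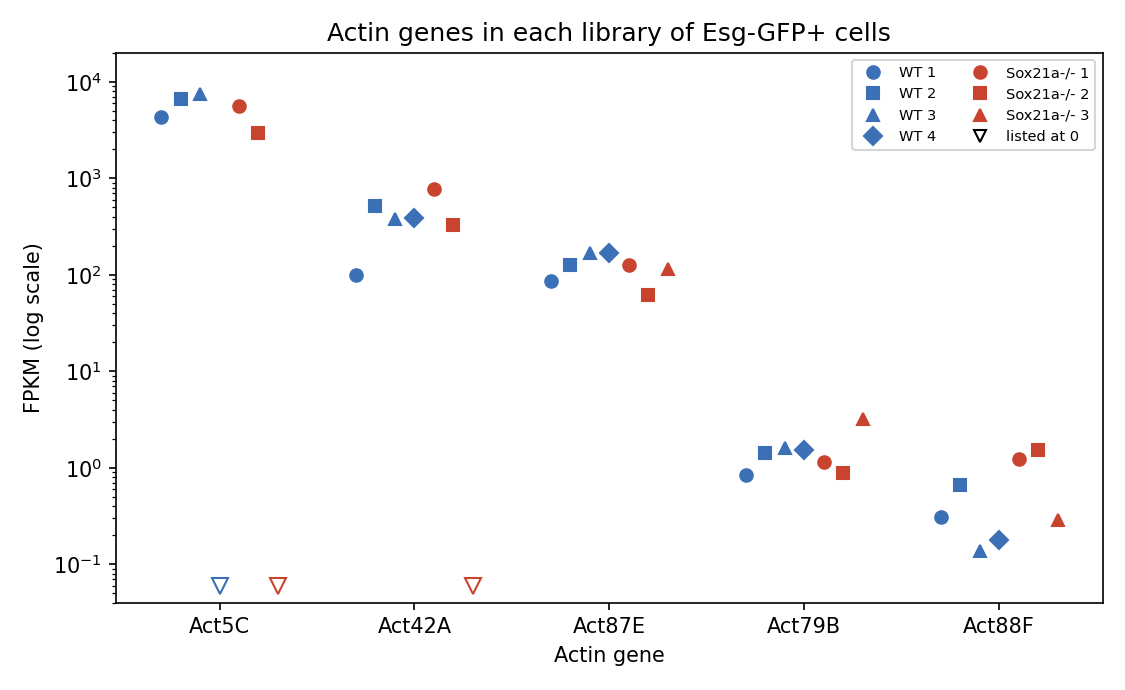
FPKM of the 5 actin genes (log scale) in each library, with wild type (WT) in blue, Sox21a-/- in red, marker shapes for replicate numbers and open triangles at the foot for values listed at 0. Act5C lay between 2973 and 7516 FPKM where above 0, Act87E between 61.7 and 170.5 FPKM, and Act79B and Act88F at or below 3.17 FPKM.

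In wild type replicates 1 to 3 the order of the levels was Act5C, Act42A, Act87E, Act79B and Act88F. In Sox21a-/- replicates 1 and 2 the first 3 genes kept this order, and Act88F lay above Act79B. Wild type replicate 4 and Sox21a-/- replicate 3 followed the wild type order among the genes that were not at 0. Act42A exceeded Act87E by 1.15 to 6.20 times in the 6 libraries in which it had a value, and in wild type replicate 1 they were nearly level, at 98.9 and 85.9 FPKM. Act87E exceeded Act79B by 36.7 to 112 times. The ranges of Act79B and Act88F overlapped across libraries.

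A nearly fixed proportion between Act5C and Act87E was the most regular feature of the family. In the 5 libraries in which Act5C was above 0, its level was 50.8, 51.8 and 44.5 times that of Act87E in wild type replicates 1 to 3, and 45.1 and 48.2 times in Sox21a-/- replicates 1 and 2. The ratio thus spanned 1.16-fold, while Act5C itself spanned 2.53-fold, and the Sox21a-/- ratios lay within the wild type range. Act87E amounted to 1.93% to 2.25% of Act5C. Among 1388 genes at 0 in no library and with a mean of at least 10 FPKM, Act87E had the steadiest ratio to Act5C over these 5 libraries (place 1, SD of the log2 ratio 0.098), with CG32170 next at 0.156 and a median of 0.620 over these genes. This ranking was chosen after the values were seen and is a description of 5 libraries. Reads that may fit both genes were not told apart here, and their part in this ratio was not tested.

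The ratio to Act42A was not steady. Act5C was 44.1, 12.8 and 19.7 times Act42A in wild type replicates 1 to 3, and 7.28 and 9.04 times in Sox21a-/- replicates 1 and 2. Act42A was 1.15, 4.05, 2.26 and 2.28 times Act87E in wild type and 6.20 and 5.33 times in Sox21a-/- replicates 1 and 2. Both Sox21a-/- libraries with a value thus held more Act42A relative to Act5C and to Act87E than any wild type library with a ratio. Act42A was listed at 0 in Sox21a-/- replicate 3, so the difference rests on 2 mutant libraries, and no test was made of it.

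**Figure D2:**
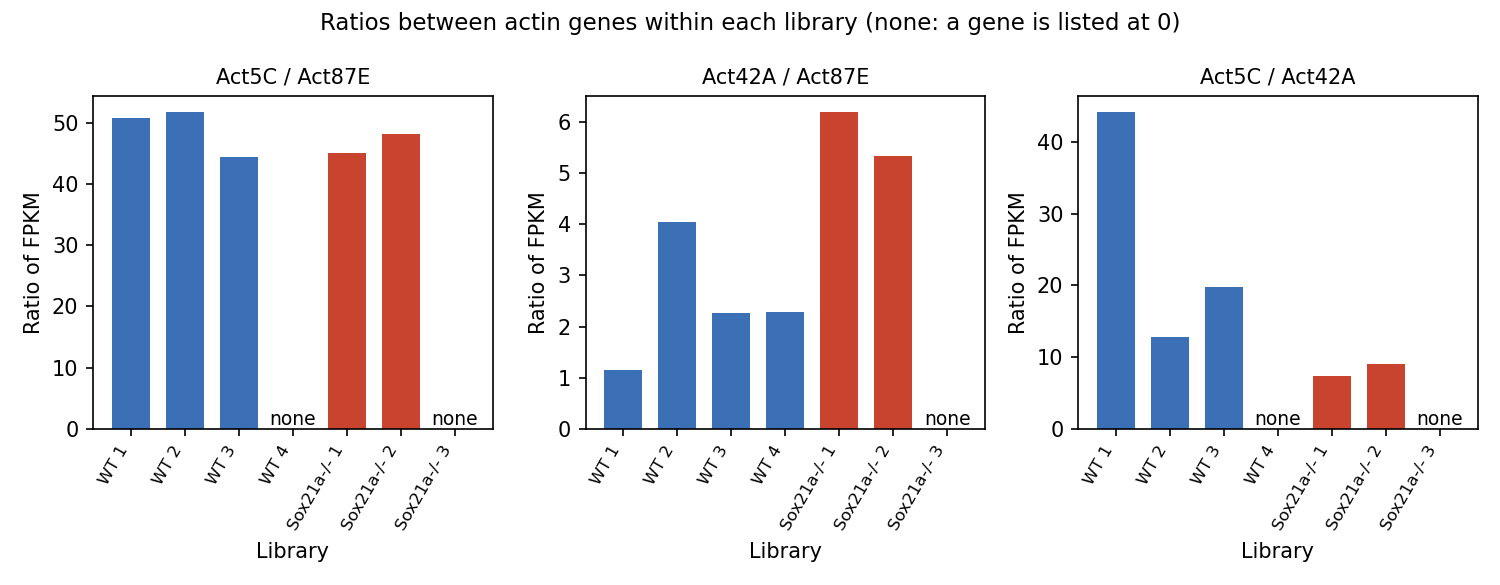
Ratio of FPKM between pairs of actin genes in each library, with wild type (WT) in blue and Sox21a-/- in red, and no bar where a gene of the pair is listed at 0. Act5C over Act87E stayed between 44.5 and 51.8, whereas Act42A over Act87E ran from 1.15 to 6.20 and Act5C over Act42A from 7.28 to 44.1.

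The muscle actins together made up a small share of all actin FPKM. This share was 1.91%, 1.79% and 2.11% in wild type replicates 1 to 3 and 1.95% and 1.90% in Sox21a-/- replicates 1 and 2. It was 30.7% in wild type replicate 4, where Act5C was listed at 0, and 100% in Sox21a-/- replicate 3, where both cytoplasmic genes were. Over the libraries in which both cytoplasmic genes were above 0, the mean share was 1.94% in wild type (n = 3) and 1.93% in Sox21a-/- (n = 2). The summed muscle actin FPKM ran from 87.1 to 172 in wild type and from 64.1 to 129 in Sox21a-/-, nearly all of it Act87E.

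Genes of the muscle contractile apparatus were below Act87E in these cells. Of 27 such genes, 7 had values here (Mlc1, Mlc2, Tm2, TpnC47D, TpnC73F, Mp20 and Mlp60A), and the others, among them Mhc, were not analysed here. Their highest value was 9.24 FPKM, for the muscle LIM protein gene Mlp60A in wild type replicate 1, and Mlc1 and Tm2 (a myosin light chain and a tropomyosin gene) were listed at 0 in 4 and 5 libraries. The summed level of the 7 genes was 4.30 to 22.3 FPKM in wild type and 10.7 to 19.0 FPKM in Sox21a-/-. The library with the highest sum, wild type replicate 1, had the lowest Act79B (0.839 FPKM) and the second lowest Act87E (85.9 FPKM). The next highest sum, 19.0 FPKM in Sox21a-/- replicate 2, stood beside the lowest Act87E (61.7 FPKM). The lowest sums, 4.30 and 5.26 FPKM in wild type replicates 3 and 4, stood beside the highest Act87E (168.8 and 170.5 FPKM). Those libraries also held the lowest Act88F (0.138 and 0.179 FPKM). Act88F was highest, at 1.53 FPKM, in Sox21a-/- replicate 2, where the hemocyte markers with values other than crq were also highest. The part of visceral muscle or of other cells in the values of Act87E, Act79B and Act88F was not tested. In bulk samples, fewer cells of a type and less RNA per cell cannot be told apart.

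**Figure D3:**
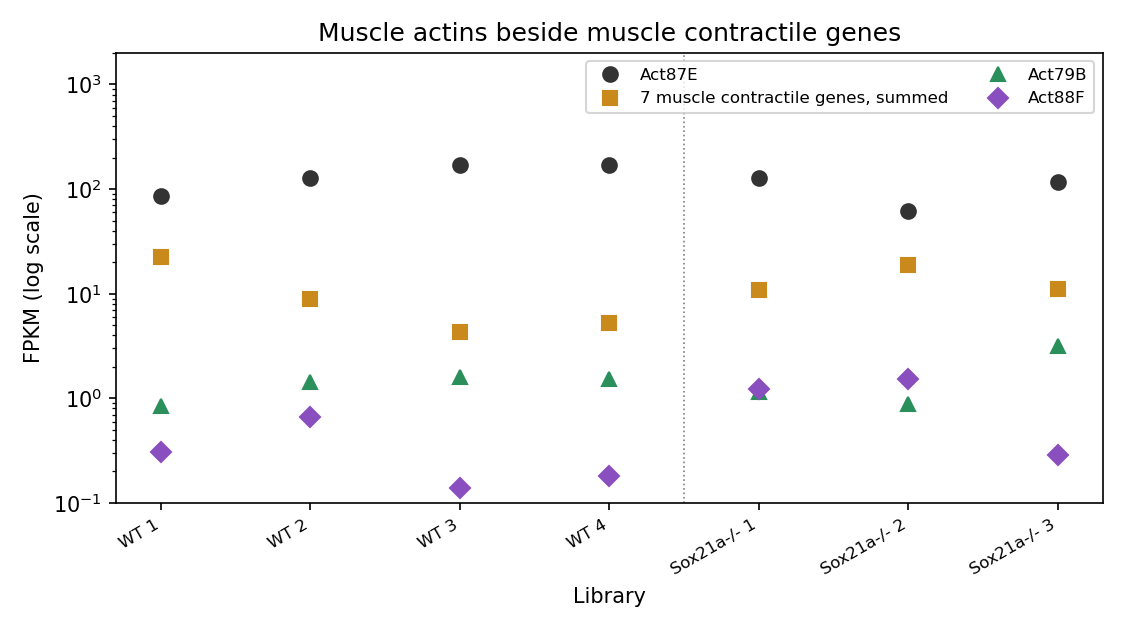
FPKM (log scale) of the muscle actin genes Act87E, Act79B and Act88F and the summed FPKM of 7 muscle contractile genes in each library, with wild type (WT) to the left and Sox21a-/- to the right of the dotted line. Act87E, at 61.7 to 170.5 FPKM, lay above the sum of the contractile genes (4.30 to 22.3 FPKM) in every library, and Act79B and Act88F lay below it.

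The genotypes were compared by limma on log2(FPKM + 1), two-sided, over the 6565 genes whose mean reached 1 FPKM, of which 2.44% were called at an adjusted p of at most 0.05 (1.39% higher and 1.05% lower in Sox21a-/-). On this scale the folds of weakly expressed genes come out too small. Of the 5 actin genes, 4 could be tested. None was called, and none passed an unadjusted P of 0.05, which 14.3% of all genes tested passed. The groups overlapped for all 5, whereas they did not for 19.7% of all genes tested. Act5C, listed at 0 in 1 library of each group, had to overlap through those zeros, and its values above 0 overlapped as well. The median log2 difference over the 4 genes was -0.93, in which the zeros of the cytoplasmic genes are included, against 0.04 over all genes tested. Each gene was tested as well by exact permutation over the 35 ways to place the genotype labels, which can give no p below 0.0286.

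For Act5C the log2 difference, Sox21a-/- minus wild type, was -1.41 (standard error 4.55, Benjamini-Hochberg adjusted p = 0.913 by limma, exact permutation p = 0.543). Its 95% interval ran from -12.5 to 9.68, so that with the zeros as values nothing can be said of its direction, and it was 2.59 without Sox21a-/- replicate 3. With zeros treated as missing it was -0.54 (95% interval -1.53 to 0.44, adjusted p = 0.428 by limma). For Act42A it was -2.22 (standard error 2.36, 95% interval -7.98 to 3.55, adjusted p = 0.698 by limma, exact permutation p = 0.6). It turned to 0.78 with zeros treated as missing and without Sox21a-/- replicate 3, the only library of this gene at 0.

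Act87E, at 0 in no library, had a log2 difference of -0.46 (standard error 0.37, 95% interval -1.35 to 0.44, adjusted p = 0.626 by limma, exact permutation p = 0.314). Without Sox21a-/- replicate 2 it was -0.13, and without wild type replicate 1 it was -0.67. Within the higher depth level, the single Sox21a-/- library (61.7 FPKM) was below both wild type libraries (85.9 and 127.6 FPKM), a log2 difference of -0.75. Within the lower one, both Sox21a-/- libraries (126.5 and 116.4 FPKM) were below both wild type libraries (168.8 and 170.5 FPKM), a log2 difference of -0.48. These wild type libraries were replicates 3 and 4, the closest pair of all, so they may count for little more than 1. How many of all genes separate within both depth levels was not computed. A limma fit that also held the depth level, an alternative chosen once the values had been seen, gave -0.59 (95% interval -1.06 to -0.12), with an adjusted p of 0.289. With wild type replicates 3 and 4 averaged as well, it was -0.62 (95% interval -1.26 to 0.03, adjusted p = 0.540 by limma), an interval that includes 0. Act5C showed the same order where it had values, with 2973 FPKM in Sox21a-/- against 4366 and 6607 FPKM in wild type at the higher depth level, and 5705 against 7516 FPKM at the lower one. Because reads may be shared between these genes, this is no independent support. Of 17 enterocyte markers, 16 had values, 11 of them with zeros. Their summed level was 1024 to 4653 FPKM over the wild type libraries and 2287 to 15947 FPKM over the mutant ones, with the highest sum in Sox21a-/- replicate 2, where Act87E was lowest. The 5 without zeros (nub, epsilonTry, Jon65Ai, Jon99Ci and Mal-A1) were higher in every mutant library than in any wild type library. For nub the values were low and the gap narrow, with RNA at 1.93 to 4.40 FPKM in wild type and 4.56 to 7.57 FPKM in Sox21a-/-. The groups did not overlap, in either direction, for 19.7% of all genes tested. That share includes genes with zeros, and the share among genes without zeros was not computed. The median log2 difference of these 5 markers was 2.37, and none was called (lowest adjusted p = 0.1002 by limma). Over all 16 markers, with zeros as values, 9 had a log2 difference above 0 and the median was 0.54. The part of enterocytes in the actin values was not tested.

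Act79B had a log2 difference of 0.14 (standard error 0.37, 95% interval -0.77 to 1.05, adjusted p = 0.892 by limma, exact permutation p = 0.8), and this changed sign to -0.21 without Sox21a-/- replicate 3. Act88F was below the mean of 1 FPKM needed for the test. Its means were 0.320 ± 0.235 FPKM (SD, n = 4) in wild type and 1.02 ± 0.648 FPKM (SD, n = 3) in Sox21a-/-, with an exact permutation p of 0.143. Within either depth level every Sox21a-/- value of Act88F was above every wild type value, with log2 differences of 0.78 and 0.55. The higher level holds a single Sox21a-/- library. The closest values of the lower one, 0.290 and 0.179 FPKM, stand for about 4.12 and 2.43 reads. The share of all genes that separate within both levels was not computed. When genes of every level were tested, its log2 difference was 0.57 (95% interval -0.18 to 1.31, adjusted p = 0.540 by limma).

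**Figure D4:**
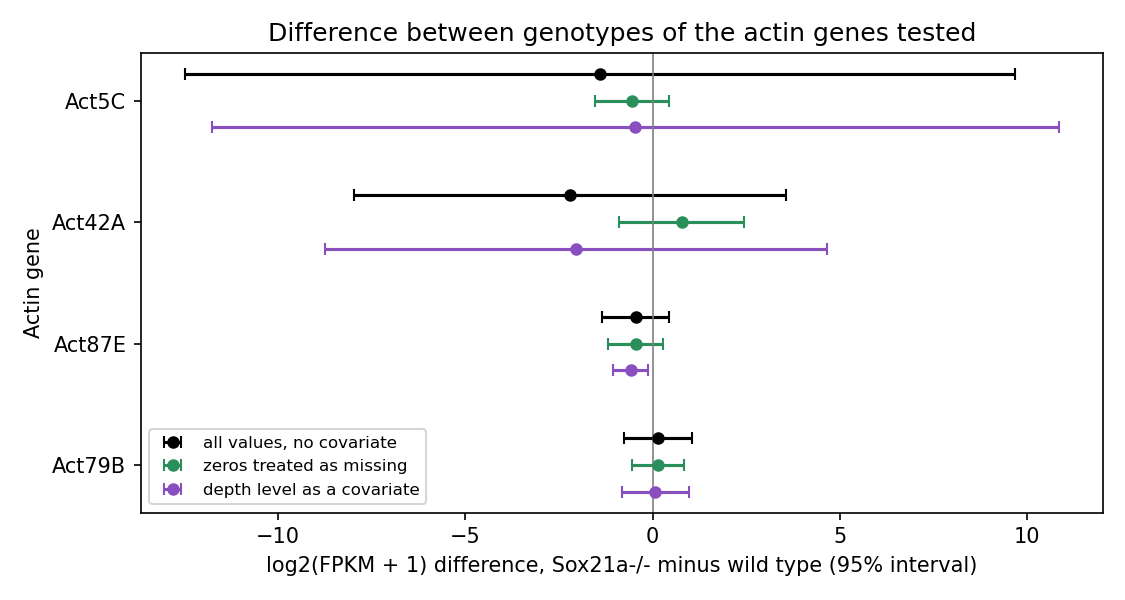
Difference in mean log2(FPKM + 1) between Sox21a-/- and wild type for the 4 actin genes tested by limma, with 95% intervals, for all values without a covariate (black), zeros treated as missing (green) and depth level as a covariate (purple). The intervals of Act5C and Act42A span many log2 units unless zeros are treated as missing, and among these 12 intervals only that of Act87E with depth level as a covariate, from -1.06 to -0.12, does not include 0.

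The pattern of each actin gene at 0 in no library was compared with that of genes without zeros whose mean reached 10 FPKM, by Pearson's r of log2(FPKM + 1) over the 7 libraries, which share depth and genotype. Closest to Act87E were vig2 (r = 0.990), Stt3A (0.987), Alg3 (0.978), CCT5 (0.976) and alpha-PheRS (0.973). CCT5, a subunit of the chaperonin that folds actin and tubulin, had wild type values of 236, 341, 355 and 357 FPKM and Sox21a-/- values of 318, 198 and 306 FPKM, with the lowest values in the same libraries as for Act87E, wild type replicate 1 and Sox21a-/- replicate 2. The same libraries were lowest for vig2, Stt3A, Alg3 and alpha-PheRS, so this is not particular to CCT5. Closest to Act79B were Hex-A (r = 0.943), AP-1-2beta (0.891), pins (0.884), fliI (0.855) and Fit1 (0.851), and closest to Act88F were CG31704 (0.909), CG34301 (0.906), FBgn0259979 (0.895), CG12926 (0.891) and CG5958 (0.880). With Act79B and Act88F at so few reads, these last 2 lists carry little weight.

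The proteins that nucleate, cap and sever actin filaments were expressed alongside. Of 9 genes of actin-related proteins, 6 had values and all 6 were tested, with none called in either direction by limma, none below an unadjusted P of 0.05, and a median log2 difference of -0.41 with zeros included and -0.11 over the 4 without zeros. Of the muscle contractile genes, 4 could be tested, likewise with none called and none below an unadjusted P of 0.05, and their median log2 difference was 0.56. Arp3, a core subunit of the Arp2/3 complex that nucleates branched filaments, had wild type values of 95.8, 132.8, 131.7 and 131.1 FPKM and Sox21a-/- values of 158, 106 and 139 FPKM. Arp1, the actin-related protein of dynactin, ranged from 81.1 to 91.1 FPKM across wild type and from 80.4 to 128 FPKM across Sox21a-/- libraries. Arp3 and Arp1 were thus close to Act87E in level and far below Act5C. The nuclear actin-related proteins were lower in level. Arp8, of the INO80 chromatin remodeller, had wild type values of 8.63, 10.1, 10.2 and 10.98 FPKM and Sox21a-/- values of 7.44, 5.33 and 7.69 FPKM, and Bap55, of the Brahma complex, 26.5, 22.9, 21.1 and 20.1 FPKM against 18.7, 15.9 and 18.7 FPKM. For both, chosen after their values were seen, the groups did not overlap, as for 19.7% of all genes tested, those with zeros included. The log2 differences of Arp8 and Bap55 were -0.50 (adjusted p = 0.466 by limma) and -0.33 (adjusted p = 0.509 by limma).

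Of 49 actin regulators, 25 had values and were tested, with none called in either direction by limma and 1, twf, below an unadjusted P of 0.05, against 14.3% of all genes tested. Their median log2 difference was -0.05 with the 17 that had zeros and 0.16 over the 8 without zeros, of which 5 were above 0. The 4 with the highest means, tsr (cofilin, which severs filaments), Fim (fimbrin, a bundling protein), sqh (the regulatory light chain of nonmuscle myosin) and Mlc-c (its essential light chain), were each listed at 0 in 2 to 4 libraries. Where above 0, tsr was at 914 to 1132 FPKM and sqh at 1095 to 1203 FPKM. The 8 regulators without zeros had log2 differences between -0.33 and 0.50. The highest of these was that of twf (twinfilin, which binds actin monomers), chosen after its values were seen, with wild type values of 23.8, 29.5, 27.0 and 27.5 FPKM and Sox21a-/- values of 43.5, 30.4 and 43.2 FPKM. All Sox21a-/- values of twf were above all wild type values. Groups did not overlap for 19.7% of all genes tested, a share that includes genes with zeros. The log2 difference of twf was 0.50 ± 0.19 (standard error), with an adjusted p of 0.330 by limma. The capping protein genes cpa and cpb were at 182 to 308 FPKM and 79.9 to 116 FPKM over all libraries, with log2 differences of -0.07 and -0.05.

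Among tubulin and other housekeeping genes often used as references beside Act5C, none of the 7 tested was called by limma or below an unadjusted P of 0.05, and 5 of them were also listed at 0 in at least 1 library. alphaTub84B, the major alpha-tubulin gene, had wild type values of 0, 0, 2699 and 2851 FPKM and Sox21a-/- values of 0, 1779 and 3130 FPKM. RpL32, a ribosomal protein gene, had wild type values of 5290, 2947, 0 and 6992 FPKM and Sox21a-/- values of 0, 0 and 5759 FPKM. Only Gapdh1 and Gapdh2 had no 0, with log2 differences of 0.23 and 0.37. Other abundant genes were thus listed at 0 as well, and the libraries at 0 differed from gene to gene.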

How the data were processed

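Per the submitters' processing notes and the paper's methods, single-end reads were aligned with TopHat2 2.0.10 (BDGP5, Release 5) and the authors derived expression with Cufflinks 2.2.1. The deposited values are FPKM per library, with no read counts. How the listed genes were chosen is not stated. FlyBase identifiers were looked up in the BDGP6 annotation for symbols and coordinates (7339 of 7608 matched). The reads per library were recovered as the smallest common step of FPKM times kilobases, shared by 5 to 39 genes with 1 annotated transcript.

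The comparison used limma 3.58.1 in R 4.3.3 (trend and robust settings) on log2(FPKM + 1) without a covariate, over genes whose mean reached 1 FPKM. Benjamini-Hochberg adjustment was over all 6565 genes. The fit was tried on simulated data modelled only on genes at 0 in no library. That trial therefore does not show how the fit performs on genes with zeros. The remaining steps ran in Python 3.11.15 (pandas 2.3.3, numpy 2.4.6, scipy 1.17.1), and figures were drawn in matplotlib 3.10.9. The paper's methods give 3 biological replicates, and all 4 wild type libraries of the labels were used. The actin genes and the other lists were chosen with earlier results of these data known. Named genes are the actin genes, the 5 most alike of each actin gene without zeros, and, per list, up to 6 called genes and the 4 of highest mean, with others as needed to describe a list. Markers of enterocytes, enteroendocrine cells, hemocytes, trachea and progenitors were tabulated. None of these was called but klu, a progenitor marker, with 29.7 to 49.0 FPKM across wild type and 9.14 to 16.6 FPKM across Sox21a-/- libraries (adjusted p = 0.0388 by limma). The alternatives changed the pseudocount, the filter, the scaling, the treatment of zeros, the libraries and the covariates, and the closing section gives their effect. Counting error alone limits low values such as those of Act88F.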

Additional observations from a re-analysis of the deposited data

Results flagged for a closer look

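Of 18 values examined over the 4 wild type libraries, 2 had 1 library far from the other 3 by Dixon's criterion, where about 0.9 would by chance. The muscle share of actin FPKM was 30.7% in wild type replicate 4 and 1.79% to 2.11% in the others, with Act5C listed at 0 in that library alone. Wild type replicate 1 had 95.8 FPKM of Arp3, and the others had 131.1 to 132.8 FPKM.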

How the results depend on the processing

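None of the 78 values of actin genes under the alternatives passed an adjusted p of 0.05 by limma, and 5 changed direction. Act42A turned to 0.78 with zeros treated as missing and Act79B to -0.11 with quantile normalization. With each library left out in turn, the log2 difference ranged from -4.55 to 2.59 for Act5C, from -4.03 to 0.78 for Act42A, from -0.21 to 0.37 for Act79B and from -0.67 to -0.13 for Act87E. Act87E kept its direction under all 20 alternatives (adjusted p 0.289 to 0.857 by limma). Some of these, such as those of the filter and of zeros, leave the values of this gene without zeros unchanged. The direction of Act87E could not change in them. The mean muscle share of actin FPKM was 25.5 percentage points higher in Sox21a-/- with zeros kept, -0.01 in libraries with both cytoplasmic genes above 0 (added after seeing the data) and -0.02 with zeros left out of group means. It ranged from -7.19 to 41.9 with each library left out.

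The number of genes called at an adjusted p of at most 0.05 (160) was 613 with zeros treated as missing. Of the alternatives added after seeing the data, it was 98 with depth level as a covariate, 105 with wild type replicates 3 and 4 averaged, 44 with both and 423 among genes at 0 in no library, and it was 122 to 196 with each library left out. The 702 genes at P of at most 0.05 and a fold of at least 2 became 458 with a mean of at least 5 FPKM, 297 among genes at 0 in no library and 505 to 590 with each library left out. With the replicate number as a block, for replicates 1 to 3, these counts were 3 and 442. Deviations of same-numbered libraries correlated at 0.01, 0.37 and 0.20 over 2460 genes, and those of the other pairs at -0.28 to 0.27. The highest value was thus that of a same-numbered pair. These values do not settle whether the numbers pair the libraries, and the main fit held no block. The zeros and the few reads of Act79B and Act88F limit what these values can show.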
